A study of Mus musculus with 6 samples.

Results

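The Kruppel-like factors (KLFs) are a family of zinc finger transcription factors. The 10 members described here are Klf2, Klf3, Klf4, Klf6, Klf7, Klf9, Klf10, Klf11, Klf12 and Klf13. Every probe set annotated to exactly 1 gene symbol, equal to a member, was taken, which gave 36 of the 45037 probe sets tested. The 10 genes are 10 of 18193 measured genes. Antibody-secreting plasma cells of bone marrow (B220-, CD138+) were compared with mature B cells of spleen (B220+, CD23+), with 3 Affymetrix arrays per group, all from C57BL/6 mice for which the labels name no transgene or deletion. Mice giving plasma cells had been boosted 7 days earlier with KLH, a carrier protein antigen, and those cells passed a CD138 bead enrichment before the sort. The labels give neither a boost for the B cell donors nor the age of the mice, and do not say whether the arrays are separate animals. Input was 50000 to 70000 plasma cells and 2000000 to 3000000 naive B cells per array. Tissue, antigen boost, enrichment and input therefore went with cell type and cannot be told apart from it. Sex-linked transcripts, given below, went with cell type in part.

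All KLF proteins share a C-terminal DNA-binding domain of C2H2 zinc fingers that recognises CACCC and GC-rich boxes, so their actions differ mainly through the N-terminal parts. Klf2, Klf4, Klf6 and Klf7 are usually placed in a subgroup that activates transcription through acetyltransferases, although Klf2 and Klf4 can also repress. Klf3 and Klf12 recruit the corepressor CtBP, and Klf9, Klf10, Klf11 and Klf13 recruit the corepressor Sin3a. In lymphocytes Klf2 is known for keeping naive cells quiescent and for controlling the trafficking genes S1pr1 and Itgb7. In B cells Klf3 opposes some actions of Klf2, and Klf4 is a target of FOXO factors that has been tied to the control of proliferation.

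The labelled cell types fitted their sort markers. Sdc1, which encodes CD138, lay between 12664 and 13218 on the plasma cell arrays and between 969 and 1183 on the B cell arrays, in units of deposited linear intensity. Fcer2a, which encodes CD23, lay between 44.0 and 52.0 and between 5061 and 6734, respectively. Ptprc, whose long isoform is B220, fell by a log2 fold change of −1.15. Of the marker lists, 10 of 10 plasma cell genes rose (Prdm1 by 5.67) and 8 of 9 measured B cell genes fell, among them Fcer2a by −6.55 and the B cell identity factor gene Pax5 by −3.97, with 1 of 3 plasma cell arrays over background. Monocyte and macrophage markers also differed, with 1 of 8 measured genes higher (Cd68 by 1.75) and 4 lower, among them Lyz2 by −2.21, Adgre1 by −2.19 and Csf1r by −1.70, the last a call lost in 7 alternatives. Their summed intensity was 1910 to 2357 on the plasma cell arrays and 3905 to 6128 on the B cell arrays, with none listed at 0. Of 12 measured T and NK cell genes 2, Cd4 and Cd247, rose and 0 fell. Among them Cd4, within background on all 3 B cell arrays, was at least 13.4-fold higher. Cd247 rose by 0.65, a call lost after median centring (limma adjusted p = 0.0578) and under other alternatives, with −0.03 for the mean of its probe sets. Without B cell array 1, described below, Cd3e (2.6, adjusted p = 0.00901) and Il7r (4.58, 0.00554) were also called higher. Of 9 measured granulocyte genes 1 rose and 1 fell, with a sum of 8747 to 20981 on the plasma cell arrays. Their median log2 fold change was 1.78. At an unadjusted p under 0.05 in limma, 4 of them were higher and 1 lower, beside 21.6% and 17.8% of all genes. Of 7 measured dendritic cell genes 2 rose (Flt3 by 2.61 and Bst2 by 2.35) and 1 fell. Over all genes 16.7% rose and 11.5% fell. The part of all these markers in the KLF differences was not tested. B cell array 1 stood apart from the rest of its group. Over all probe sets its Pearson correlation was 0.933 and 0.926 with B cell arrays 2 and 3, against 0.992 between those arrays. The summed intensity of 12 measured T and NK cell markers was 6779 on it, against 528 and 567 on B cell arrays 2 and 3. For 9 measured granulocyte markers the sum was 13076 on it, against 2951 and 1935. The X-inactivation RNA Xist was high on it (8408) and on all 3 plasma cell arrays (8070 to 8702), but low on B cell arrays 2 and 3 (30.8 and 18.1). The sex-linked gene Kdm5d showed the opposite, with 1507 and 1576 on B cell arrays 2 and 3 and 3.0 to 8.8 on the other arrays. The groups of the main fit therefore differed in part in sex-linked transcripts, and those of a fit without B cell array 1 differed in full. The part of this in the KLF differences was not tested.

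No KLF probe set was called higher in plasma cells and 10 of 36 were called lower, in limma's fit over all 45037 probe sets at a Benjamini-Hochberg adjusted p of 0.05. Over all probe sets 12.8% were called lower and 13.4% higher. The 10 lower probe sets belong to 3 genes, 6 to Klf3, 2 to Klf9 and 2 to Klf13, and probe sets of 1 gene are not independent. At an unadjusted p under 0.05, 13 KLF probe sets were lower and 2 higher, beside 19.9% and 17.7% of all probe sets. With each gene represented by its brightest probe set (highest mean intensity over the 6 arrays), 3 of 10 genes fell and 0 rose, beside 11.5% lower and 16.7% higher over all genes. The arrays of the groups did not overlap for 14 KLF probe sets, 12 lower and 2 higher in plasma cells, where 24.6% of all probe sets were separate and lower and 20.8% separate and higher. By brightest probe set, 5 genes were separate and lower (22.6% of all genes) and 1, Klf12, separate and higher (25.5%). The median log2 fold change, plasma cells minus B cells on log2(intensity + 16), was −0.48 over the 36 probe sets and −0.13 over all probe sets. Of the 36 probe sets, 29 lay over background on all 6 arrays and 2, both of Klf9, lay within background on all 6. Background is each array's 95th percentile of 27 control probe sets for bacterial genes, 23.0 to 41.8.

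**Figure D1:**
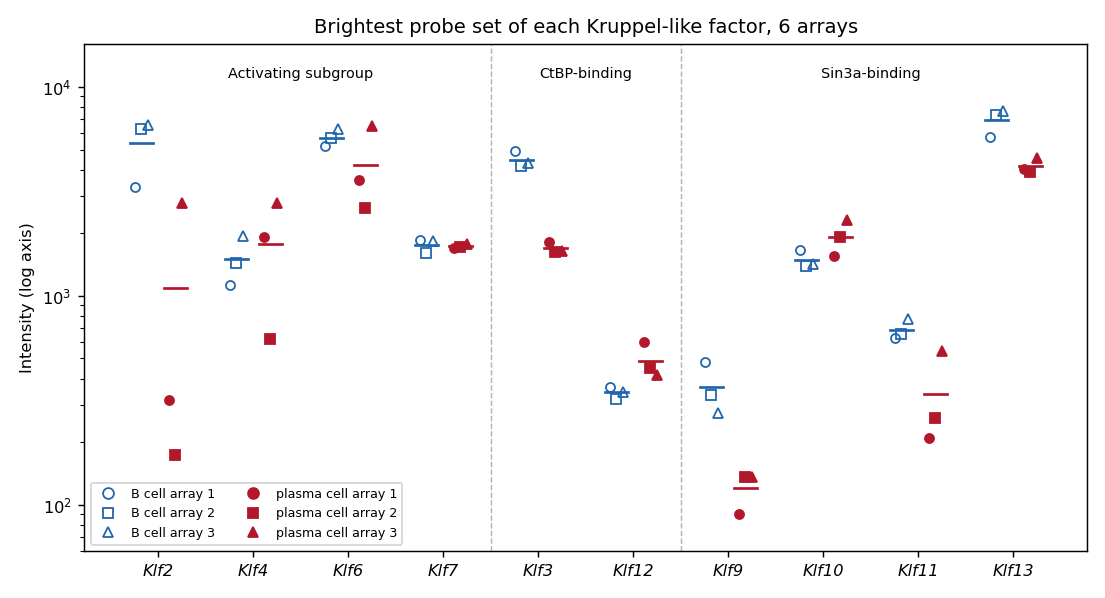
Intensity of the brightest probe set of each of the 10 genes (log axis), with 1 point per array, open blue for B cells and filled red for plasma cells, and a bar at each group's mean (n = 3). Klf3, Klf9 and Klf13 have separate groups and were called, while plasma cell array 3 (filled triangle) sits far above the other plasma cell arrays for Klf2, at 2762 against 317 and 173.

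**Figure D2:**
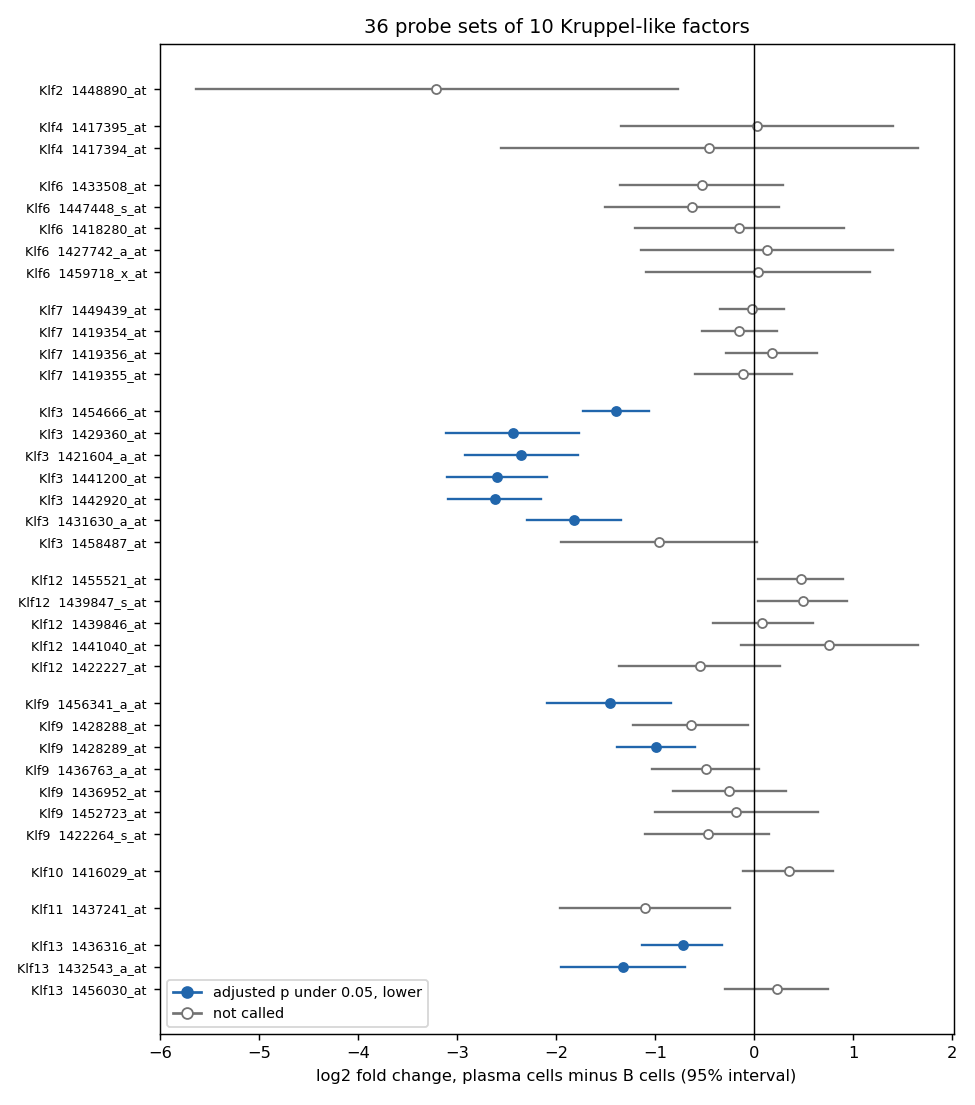
Log2 fold change of all 36 probe sets, plasma cells minus B cells, with 95% intervals from limma. Filled blue points were called lower; the interval of Klf2 runs from −5.64 to −0.77, and all 6 called probe sets of Klf3 lie between −2.62 and −1.39.

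The sequences upstream of 4 members are shown because these members carry the main patterns: Klf3 has the most called probe sets, Klf2 has the largest fold, and Klf2, Klf4 and Klf6 were uneven together over the plasma cell arrays. Each is the 250 bases before the annotated start, 5′ to 3′ on the gene's strand, from RefSeq on build GRCm38.p6. Capitals mark CACCC (or GGGTG, the same box on the other strand) and GGGCGG (or CCGCCC), the boxes KLF and Sp proteins are known to bind.
The Klf2 window is chr8:72318812-72319061 (plus strand).
Klf2: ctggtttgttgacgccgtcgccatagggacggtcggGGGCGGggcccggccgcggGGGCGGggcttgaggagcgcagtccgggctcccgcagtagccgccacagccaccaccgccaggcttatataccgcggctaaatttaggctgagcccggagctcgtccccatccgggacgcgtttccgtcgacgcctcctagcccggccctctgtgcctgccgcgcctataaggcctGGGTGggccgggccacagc
The Klf3 window is chr5:64803271-64803520 (plus strand).
Klf3: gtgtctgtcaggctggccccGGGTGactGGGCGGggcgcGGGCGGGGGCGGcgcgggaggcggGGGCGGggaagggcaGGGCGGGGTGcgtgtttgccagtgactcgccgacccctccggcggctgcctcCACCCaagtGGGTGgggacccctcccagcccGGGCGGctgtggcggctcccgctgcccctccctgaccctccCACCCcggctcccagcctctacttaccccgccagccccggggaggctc
The Klf4 window is chr4:55532476-55532725 (minus strand).
Klf4: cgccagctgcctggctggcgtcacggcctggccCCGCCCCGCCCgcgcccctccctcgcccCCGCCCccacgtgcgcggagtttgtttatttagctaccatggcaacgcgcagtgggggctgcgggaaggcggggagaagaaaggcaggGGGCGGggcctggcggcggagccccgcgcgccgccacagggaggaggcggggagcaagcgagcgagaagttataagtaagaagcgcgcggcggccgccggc
The Klf6 window is chr13:5861239-5861488 (plus strand).
Klf6: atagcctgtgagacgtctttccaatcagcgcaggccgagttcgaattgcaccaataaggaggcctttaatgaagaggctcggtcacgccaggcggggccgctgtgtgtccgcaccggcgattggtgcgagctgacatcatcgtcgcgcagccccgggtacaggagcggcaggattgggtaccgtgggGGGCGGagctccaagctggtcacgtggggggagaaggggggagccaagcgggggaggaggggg

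Of the 10 members, 9 had an entry in the RefSeq promoter table. CACCC on either strand was found in 6 of these 9 windows, against 52.0% of 32851 upstream windows of the same length. Klf3 held 5 matches, Klf7 held 3, and Klf2, Klf9, Klf12 and Klf13 held 1 each. GGGCGG on either strand was found in 7 of 9, against 32.7%, with 6 matches for Klf3 and 4 each for Klf4 and Klf11. Matches of the 2 boxes can overlap, as they do upstream of Klf3 and Klf13. The members' windows were rich in G and C, from 48.0% for Klf12 to 78.4% for Klf3, beside a median of 52.4% over all windows, which bears on how often such boxes occur. The Klf2 window also held a match to the MEF2 box, CTAAATTTAG, starting 118 bases before the start, a motif present in 2.9% of all windows. MEF2 proteins are known to drive Klf2. The serum response element core (CArG box) and the full cAMP response element TGACGTCA were found in 0 of the 9 windows, against 1.5% of all windows for each. The shorter core TGACG was found in 5 of 9, against 17.8%, Klf2 and Klf4 among them. These matches describe letters in the windows and were not tested for binding.

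Klf2, the quiescence factor of naive lymphocytes, had the largest fold of the family and was not called. Its single probe set (1448890_at) read 317, 173 and 2762 on plasma cell arrays 1, 2 and 3, and 3311, 6273 and 6544 on B cell arrays 1, 2 and 3. All 3 plasma cell values were below all 3 B cell values, but plasma cell array 3 came close to B cell array 1 and stood 16-fold above plasma cell array 2. The log2 fold change was −3.21 ± 1.0 (SE, n = 3 per group; limma adjusted p = 0.0628), which on the scale with 16 added is 9.23-fold lower. Without plasma cell array 3 it was −4.36 and was called (adjusted p = 0.004). Without plasma cell array 1 or 2 it was −2.83 and −2.42 and was not called (0.185 and 0.164). It was also called after median centring (adjusted p = 0.0393), with array weights (0.00737) and with a mean-variance trend (0.0342). The array weights counted B cell array 1 least, at 0.105 against 0.886 to 3.61 for the other arrays. Without B cell array 1 the log2 fold change of Klf2 was −3.52 and was not called (adjusted p = 0.0691).

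Klf4, a FOXO target tied to B cell proliferation, was measured by 2 probe sets, and neither was called. The brighter (1417395_at) read 1912, 619 and 2763 on the plasma cell arrays and 1121, 1431 and 1929 on the B cell arrays. The plasma cell values spanned both sides of the B cell range. Its log2 fold change was 0.03 ± 0.56, with a 95% interval from −1.34 to 1.40, so changes of more than 2-fold in either direction remain inside the interval. The other (1417394_at) read 615, 110 and 1445 in plasma cells and 855, 560 and 584 in B cells, with a log2 fold change of −0.46 ± 0.86. In both, plasma cell array 3 was the highest of all 6 arrays and array 2 the lowest.

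Klf6, a broadly expressed member induced by growth and injury signals, had 5 probe sets and none was called. The brightest (1433508_at) read 3576, 2636 and 6492 in plasma cells and 5205, 5650 and 6255 in B cells. Plasma cell array 3 exceeded every B cell array, while arrays 1 and 2 lay below all of them. The log2 fold change was −0.53 ± 0.34 (adjusted p = 0.306). The log2 fold changes of the other 4 probe sets ran from −0.63 to 0.13. Without plasma cell array 3 the 2 brightest probe sets were called lower, with log2 fold changes of −0.89 (adjusted p = 0.0448) and −1.01 (0.0419).

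Klf7, a member best known from neurons and lymphocyte development, gave values close to each other on all arrays. Its brightest probe set (1449439_at) read 1694, 1700 and 1774 in plasma cells and 1841, 1592 and 1817 in B cells. The groups overlapped throughout. The log2 fold change was −0.02 ± 0.13, with a 95% interval from −0.34 to 0.30, and the log2 fold changes of the 4 probe sets ran from −0.15 to 0.18. Changes of this probe set larger than 0.34 on that log2 scale therefore lie outside its interval.

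Klf3, the CtBP-recruiting repressor, fell in plasma cells by 6 of its 7 probe sets. The brightest (1454666_at) read 1812, 1622 and 1633 in plasma cells and 4918, 4190 and 4290 in B cells. The plasma cell values lay within 1.12-fold of each other and all were below every B cell value. The log2 fold change was −1.39 ± 0.14 (limma adjusted p = 0.00104), or 2.63-fold lower. The other 5 called probe sets gave larger log2 fold changes, from −2.62 ± 0.19 for 1442920_at (133, 118 and 96.5 against 649, 913 and 833) to −1.82 ± 0.19 for 1431630_a_at (157, 138 and 118 against 422, 541 and 624). The size of the fall of Klf3 therefore depended on the probe set, from 2.63-fold to 6.15-fold lower. The seventh (1458487_at) was dim, with 1 plasma cell array and 2 B cell arrays over background, and was not called (log2 fold change −0.96 ± 0.41). The 6 called probe sets were called under every alternative processing that applied to them. The highest adjusted p over those alternatives was 0.0149. The mean of all 7 probe sets gave a log2 fold change of −2.03 for Klf3.

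Klf12, the other CtBP-recruiting member, had 5 probe sets with 0 called. The brightest (1455521_at) read 598, 449 and 415 in plasma cells and 366, 321 and 347 in B cells. The next (1439847_s_at) read 325, 291 and 234 against 175, 231 and 184. All plasma cell values of both probe sets lay above all B cell values, by log2 fold changes of 0.47 ± 0.18 (adjusted p = 0.11) and 0.49 ± 0.18 (0.107). They are the only KLF probe sets that were separate in the upward direction. Of the other 3, 1439846_at had a log2 fold change of 0.08 ± 0.21 and 2 lay near or within background. With array weights the brightest was called higher (0.59, adjusted p = 0.0164), and so was the dim 1441040_at (1.05, 0.0122). The latter was also called higher without B cell array 1 (1.09, adjusted p = 0.0355). In that probe set B cell array 1, at 41.9, was the only B cell array over background.

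Klf9, a stress hormone responsive repressor that acts with Sin3a, fell by 2 of its 7 probe sets. The brightest (1456341_a_at) read 90.2, 135 and 135 in plasma cells and 481, 335 and 275 in B cells. All plasma cell values were below all B cell values, and B cell array 1 was the highest. The log2 fold change was −1.46 ± 0.26 (limma adjusted p = 0.00879). The other called probe set, 1428289_at, read 93.6, 112 and 106 against 263, 208 and 198, with a log2 fold change of −0.99 ± 0.16 (adjusted p = 0.00656). Another of similar brightness, 1428288_at, read 137, 151 and 195 against 186, 303 and 298 and was not called (−0.64 ± 0.24, adjusted p = 0.106). There B cell array 1 fell inside the plasma cell range, and without that array the probe set was called (−0.85, adjusted p = 0.0128). The other 4 probe sets read at most 70.5 on any array, and their log2 fold changes ran from −0.49 to −0.18. Both called probe sets were called under every alternative that applied to them, with adjusted p up to 0.0434. The mean of all 7 probe sets gave a smaller log2 fold change for Klf9, −0.64 (adjusted p = 0.0243).

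Klf13, a Sin3a-binding regulator known from T cells, fell by 2 of 3 probe sets. The brightest (1436316_at) read 4015, 3896 and 4546 in plasma cells and 5755, 7348 and 7613 in B cells. The groups were separate, and the log2 fold change was −0.72 ± 0.17 (limma adjusted p = 0.0228), or 1.65-fold lower. That call was lost after median centring (adjusted p = 0.193). It was also lost without any of the 3 plasma cell arrays (0.0916, 0.091 and 0.0502), without B cell array 2 or 3 (0.0796 and 0.0765), with the mean of all probe sets (0.0662) and with the replicate number as a block (0.0567). Its log2 fold change stayed between −0.85 and −0.61 over all alternatives. The second probe set (1432543_a_at) read 276, 326 and 395 against 609, 923 and 1081. Its log2 fold change was −1.32 ± 0.26 (adjusted p = 0.0124), a call that was lost without plasma cell array 1 (0.0556) or 2 (0.0517). The third (1456030_at) did not share the direction, with 132, 140 and 146 against 83.1, 128 and 147 and a log2 fold change of 0.23 ± 0.21.

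Klf10 and Klf11, both early response genes of TGF-beta signalling, had 1 probe set each and were not called. Klf10 (1416029_at) read 1546, 1901 and 2291 in plasma cells and 1651, 1392 and 1415 in B cells. The groups overlapped through B cell array 1, and the log2 fold change was 0.35 ± 0.19 (adjusted p = 0.234). Klf11 (1437241_at) read 209, 259 and 544 in plasma cells and 627, 657 and 774 in B cells. The groups were separate, with plasma cell array 3 nearest to the B cells, and the log2 fold change was −1.10 ± 0.35 (adjusted p = 0.0681). Without plasma cell array 3 it was −1.49 and was called (adjusted p = 0.00828). Array weights (0.0122) and a mean-variance trend (0.0404) gave the same call.

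Klf2, Klf4 and Klf6 were uneven over the plasma cell arrays in a shared order, with array 3 highest and array 2 lowest. This pattern was noticed after the values were seen and is given as a description. Of 31 KLF probe sets over background on all 3 plasma cell arrays, 7 had that order and spanned at least 1 on the log2(intensity + 16) scale, a 2-fold step. They are the single probe set of Klf2, both of Klf4 and 4 of the 5 of Klf6. The same held for 1.59% of the 26931 probe sets over background on these arrays. By brightest probe set it held for 3 of the 10 members, beside 1.65% of 11725 genes. The order alone, without the span, held for 11 of the 31 KLF probe sets, beside 24.5% of the 26931. By brightest probe set the order alone held for 4 of the 10 members, beside 25.2% of the 11725 genes. From lowest to highest, Klf2 spanned 3.88 on the log2 scale, a range that only 3 of 26931 probe sets matched or exceeded, Klf2 included. The ranges were 3.54 and 2.13 for the probe sets of Klf4 and 0.99 to 2.02 for those of Klf6. At the other end, Klf7 spanned 0.07 to 0.31 and Klf3 0.16 to 0.57 over the same arrays. Klf11 spanned 1.31 with array 3 highest but array 1 lowest.

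**Figure D3:**
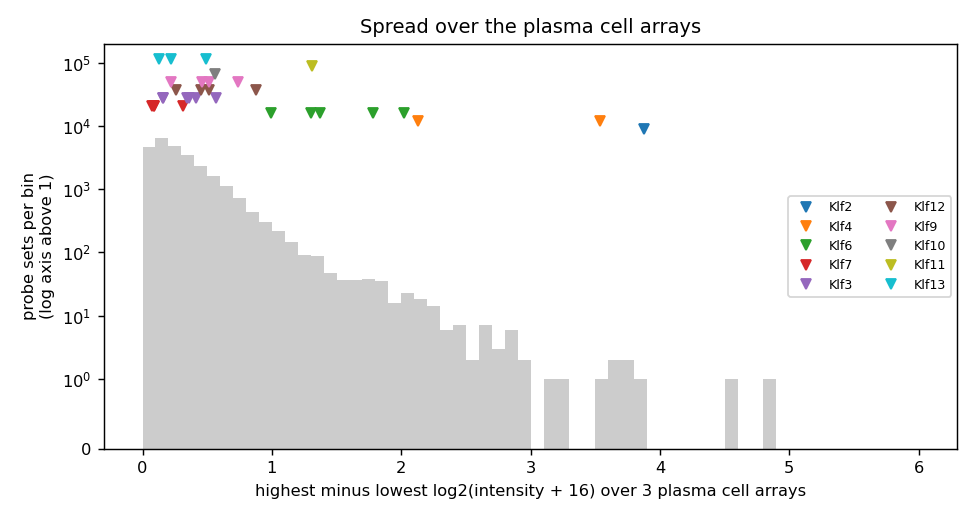
Highest minus lowest log2(intensity + 16) over the 3 plasma cell arrays for the 26931 probe sets over background there (grey bars, log axis above 1), with a triangle for each KLF probe set at its own range; triangle height only separates genes. Klf2 at 3.88 and Klf4 at 3.54 and 2.13 lie in the far tail, and Klf3, Klf7 and Klf13 lie within the bulk.

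Other transcripts moved with this order. Among 16 immediate early genes, which respond within a short time to stimulation or to handling of cells, 15 were over background on all plasma cell arrays, and 12 of these had array 3 highest and array 2 lowest, beside 25.2% of all genes. Their summed intensity was 77896, 57986 and 99171 on plasma cell arrays 1, 2 and 3. The order with a span of at least 2-fold held for 6 of the 15, beside 1.65% of all genes. Fosb, an AP-1 subunit, read 3002, 728 and 6651, and the phosphatase gene Dusp1, named after its values were seen, read 4283, 1285 and 8006. Of T and NK cell markers, 6 of 10 over background had that order. Their summed intensity over 12 measured of 14 genes was 2332, 1940 and 5020, and none was listed at 0. Il7r, named after its values were seen, made up much of these sums, with 963, 559 and 2834. Without it the sums over 11 genes were 1369, 1381 and 2186, with array 3 highest but array 2 no longer lowest, and 5 of 9 genes had the order. Cd3e, a T cell receptor component, read 225, 175 and 502. B cell markers did not share the order, with 0 of 8 over background in it. Their summed intensities over 9 measured of 10 genes were 23700, 24685 and 25872, highest on array 3 but lowest on array 1. Single genes differed, with Ebf1 at 1774, 2084 and 3824 and Ms4a1 at 3128, 3080 and 2486, both named after their values were seen. The repressor gene Bach2, from another list, read 621, 963 and 2360. Granulocyte markers were highest on array 2 (8747, 20981 and 15148), with 0 of 7 in that order. Of dendritic cell markers over background, 3 of 6 had the order, with summed intensities of 6555, 6172 and 7751 over 7 measured genes. The order held for 1 of 3 erythroid and 2 of 4 endothelial and stromal markers. It held for 0 of 6 monocyte and macrophage and 0 of 2 megakaryocyte and platelet markers. The part of these transcripts in the values of Klf2, Klf4 and Klf6 was not tested. In sorted bulk samples, a few cells with much of a transcript and many cells with little cannot be told apart.

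**Figure D4:**
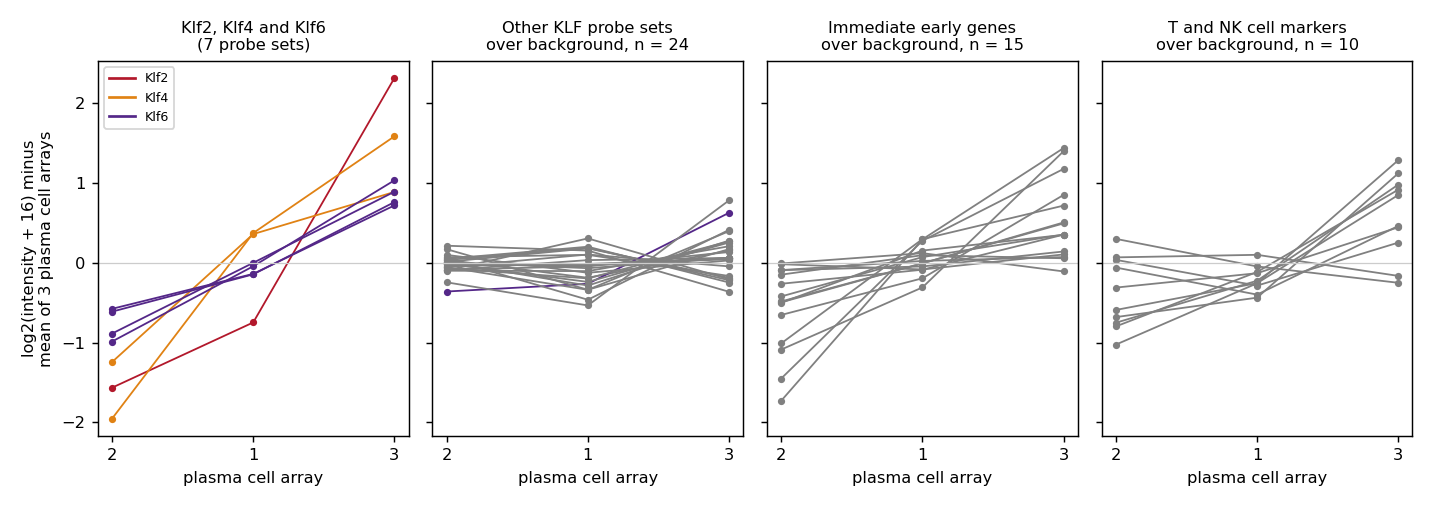
Each probe set's log2(intensity + 16) minus its mean over the 3 plasma cell arrays, with arrays placed in the order of Klf2 (2, 1, 3) and lines joining values of 1 probe set; the panels show the 7 uneven probe sets of Klf2, Klf4 and Klf6, the other 24 KLF probe sets, 15 immediate early genes and 10 T and NK cell markers. The 7 probe sets of the first panel were chosen for climbing from array 2 to array 3, so their climb follows from that choice. The second panel holds the KLF probe sets left by it, most of which stay near 0. Of the lists, 12 of the immediate early genes and 6 of the T and NK cell markers have array 2 lowest and array 3 highest.

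The genes whose pattern over the 6 arrays was nearest to that of Klf2, among 12783 genes outside the family, were Pear1, Zfp608 and Plk2, at Euclidean distances of 1.47, 1.5 and 1.54 on centred log2(intensity + 16). On plasma cell arrays 1, 2 and 3, Pear1 read 75.9, 81.2 and 353, Zfp608 385, 204 and 1071, and Plk2 12.5, 22.6 and 144. Array 3 was highest in all 3 genes, while array 2 was lowest in Zfp608 and array 1 in Pear1 and Plk2. These genes were picked for likeness over the same 6 arrays, so the likeness is a description. For Klf12, the member with the highest log2 fold change of a brightest probe set, the nearest were Dzip3, Gm17739 and Zfp963, at 0.21, 0.21 and 0.25. None of these 3 was called.

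Of 12 measured trafficking genes linked to Klf2, 2 rose and 3 fell, with a median log2 fold change of −0.08. Over all genes, against which this and each list below is to be read, 16.7% were called higher and 11.5% lower, with a median of −0.06. S1pr1, the receptor that lets lymphocytes leave tissue and a direct target of Klf2, read 58.5, 104 and 101 in plasma cells and 1785, 1522 and 1615 in B cells. It fell by a log2 fold change of −4.02 ± 0.22 (adjusted p = 0.000158) and, unlike Klf2, was not higher on plasma cell array 3 than on array 2. The related S1pr4 fell by −2.45 ± 0.30 and the homing receptor Ccr7 by −5.72 ± 0.37. The chemokine receptor Cxcr3 rose by 3.56 ± 0.14 and Selplg, the scaffold of selectin ligands, by 1.90 ± 0.13. Itgb7, the integrin chain of gut homing, read 2181, 2177 and 2612 against 2507, 4930 and 4856 and was not called (−0.75 ± 0.29).

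Of 14 genes that regulate Klf2 transcription or KLF protein turnover, 2 rose and 3 fell (median log2 fold change −0.05). Foxo1, the activator of Klf2 in resting lymphocytes, read 2155, 2136 and 2119 in plasma cells and 3557, 4931 and 4564 in B cells. The groups were separate and Foxo1 fell (−1.01 ± 0.16, adjusted p = 0.00662), a call lost after median centring (0.0709). Pik3ip1, an inhibitor of PI3 kinase, fell by −2.19 ± 0.30 and the kinase Akt2 by −1.24 ± 0.17. Fbxw7, a ubiquitin ligase subunit that targets Klf2 and other KLF proteins, rose by 1.69 ± 0.12 (7631, 7400 and 7279 against 2358, 2160 and 2370, adjusted p = 0.000358). Wwp1, another ubiquitin ligase for Klf2, rose by 0.44 ± 0.12, a call lost in 9 of its alternatives. The highest adjusted p for Wwp1 was 0.158, after median centring.

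Among 15 corepressors and coactivators that KLF proteins bind, 1 rose and 2 fell (median log2 fold change −0.08). Sin3a, the partner of Klf9, Klf10, Klf11 and Klf13, read 483, 414 and 577 in plasma cells and 1268, 929 and 999 in B cells (−1.09 ± 0.19, adjusted p = 0.00896). The histone deacetylase gene Hdac1 fell by −1.08 ± 0.19, a call lost after median centring (adjusted p = 0.062). The acetyltransferase gene Kat2b rose by 0.51 ± 0.14, with a call lost under 10 alternatives (adjusted p up to 0.657). Of 16 other Kruppel-like and Sp factors 13 were measured, of which 1 rose and 2 fell (median log2 fold change −0.30). Sp4 fell by −1.20 ± 0.13 and Klf16 by −0.83 ± 0.17. The call of Klf16 was lost after median centring (adjusted p = 0.11) and without plasma cell array 1 or 2 or B cell array 2 or 3 (0.0698, 0.0672, 0.053 and 0.0571). Sp8 was dim, within background on all 3 B cell arrays, and at least 1.43-fold higher in plasma cells.

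Of 16 genes tied to lymphocyte quiescence 1 rose and 7 fell (median log2 fold change −0.46). Foxj1, counted among the 7 and named after its values were seen, lay within background on all 6 arrays, and with a filter on background 6 fell. Slfn2, needed for quiescence of T cells, fell by −2.57 ± 0.20, the repressor Bach2 by −2.41 ± 0.48 and the antiproliferative gene Btg1 by −1.74 ± 0.31. Bach2 missed the threshold when plasma cell array 2 (adjusted p = 0.0578), B cell array 2 (0.0507) or B cell array 3 (0.0505) was left out. Cdkn2c, a CDK inhibitor that plasma cell differentiation requires, rose by 2.19 ± 0.17. The CDK inhibitor genes Cdkn1a and Cdkn1b, which KLF proteins are known to act on, were not called, with log2 fold changes of 0.56 ± 0.25 and −0.16 ± 0.12. Of 12 measured cell cycle and survival genes that KLF proteins act on, 5 rose and 0 fell by limma (median log2 fold change 0.43). At an unadjusted p under 0.05, 7 were higher and 1, the growth regulator gene Myc, named after its values were seen, lower (−0.38 ± 0.14), beside 21.6% and 17.8% of all genes. Ccnd2, a D-type cyclin gene that Klf4 is known to act on in B cells, read 10479, 10003 and 9065 against 2435, 1566 and 1511 and rose by 2.44 ± 0.22. Mki67, a marker of dividing cells, rose by 3.07 ± 0.44 and the polyamine enzyme gene Odc1 by 1.98 ± 0.17.

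In the TGF-beta pathway, which induces Klf10 and Klf11, 3 of 18 genes rose and 8 fell (median log2 fold change −0.66). Tgif1, a repressor of the pathway, fell by −2.20 ± 0.22, the inhibitory Smad7, which Klf10 and Klf11 are known to repress, by −1.72 ± 0.22, and the BMP mediator Smad1 by −1.58 ± 0.23. The ligand gene Tgfb2 rose by 2.90 ± 0.42, with only 1 B cell array over background, and the receptor gene Tgfbr1 by 0.60 ± 0.13. The mean of all probe sets ended both calls (adjusted p = 0.169 and 0.892). The call of Tgfbr1 was also lost after median centring (0.0647), with the replicate number as a block (0.0725) and without any 1 of 5 arrays. The other receptor chain, Tgfbr2, named after its values were seen, fell by −1.47 ± 0.15. Of the 16 immediate early genes 3 rose and 2 fell (median log2 fold change 0.22). Fosb rose by 3.85 ± 0.85, Jun by 2.09 ± 0.45 and Fos by 1.72 ± 0.25. Fosb and Jun both missed the threshold when plasma cell array 1 (adjusted p = 0.0775 and 0.0733), plasma cell array 3 (0.0523 and 0.0509) or B cell array 2 (0.0608 and 0.0603) was left out. Egr3 fell by −3.05 ± 0.20 and Nr4a1 by −4.03 ± 0.51, the latter over background only on array 3 of the plasma cells.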

How the data were processed

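The authors deposited 1 intensity value per probe set and array on a linear scale; the summary of probes and the normalization are not given in the sources used here. Per the labels' protocols, total RNA was amplified with NuGEN Ovation V2. Of 45101 probe sets, 64 controls were left out. Symbols came from the platform annotation (2016), updated through Entrez identifiers (34741 of 34945 probe sets with 1 symbol matched). Values became log2(intensity + 16), which understates folds of dim genes. Plasma cells and B cells were compared over all 45037 probe sets with limma 3.58.1 in R 4.3.3 (lmFit, eBayes, Benjamini-Hochberg) and no filter on low values. The procedure was tested on simulated data. Replicates are 3 arrays per group, whose number limits the precision, and p-values measure the spread between them. That spread may be technical among the plasma cell arrays and between B cell arrays 2 and 3. B cell array 1 differed from B cell arrays 2 and 3 in Xist and Kdm5d, so the B cell spread is not only technical. Genes were named from fixed lists, up to 3 called in a list's main direction and 2 in the other by absolute log2 fold change, beside 12 measured genes fixed by name. An "at least" fold uses log2 intensities without the constant and each array's background. Alternatives were pseudocounts of 1 and 64, a background filter, median centring, quantile normalization, each array left out, array weights, a variance trend, the replicate number as a block, 1 brightest or the mean probe set per gene, and no x or s probe sets. The members and lists were chosen with earlier results of these data known.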

Additional observations from a re-analysis of the deposited data

How the results depend on the processing

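Of the 10 called KLF probe sets, the 6 of Klf3 and 2 of Klf9 were called under every alternative that applied. Over 554 values of KLF probe sets, 10 lost a call, 16 gained one and 0 called values changed sign. Median centring moved the median log2 fold change of all probe sets from −0.13 to −0.01. Leaving out 1 array gave 8 to 13 KLF probe sets lower, 0 to 1 higher, and 2 to 5 KLF genes lower, 5 of them without plasma cell array 3. Array weights gave 2 KLF probe sets and 1 KLF gene higher and 5 KLF genes lower, and a variance trend gave 5 lower. Over all probe sets, leaving out 1 array gave 4012 to 8155 higher and 3236 to 9331 lower, the largest without B cell array 1, array weights 9645 and 11396, and median centring 3521 lower. Over all genes the lower count was 1199 to 3635 without 1 array, 1197 after median centring and 4395 with array weights, which gave 4603 higher.

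Without 1 array, the counts were 1 to 2 lower other Kruppel-like and Sp genes, 0 to 1 higher and 2 to 4 lower corepressors and coactivators, 1 to 2 higher and 3 to 5 lower Klf2 regulators, 1 to 2 higher and 3 to 8 lower quiescence genes, 1 to 4 higher TGF-beta genes and 1 to 4 higher immediate early genes. Median centring gave 1 lower other Kruppel-like or Sp gene, 0 higher and 1 lower corepressor or coactivator, 1 higher Klf2 regulator, 3 lower quiescence genes and 1 higher TGF-beta gene. Array weights gave 2 higher and 5 lower corepressors and coactivators, 4 higher and 6 lower Klf2 regulators, 3 higher quiescence genes, 1 lower cell cycle gene and 5 higher TGF-beta genes. A variance trend gave 2 higher and 4 lower corepressors and coactivators, 3 higher quiescence genes and 1 lower cell cycle gene. A pseudocount of 1 gave 0 higher corepressors and coactivators and 1 higher Klf2 regulator, and one of 64 gave 2 higher quiescence genes. The mean of probe sets gave 0 higher corepressors and coactivators, 2 higher quiescence genes and 1 lower cell cycle gene, and reversed the T cell marker Cd247 (−0.03). Without x and s probe sets 0 corepressors and coactivators were higher. The causes were not tested.

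Deviations from the group mean correlated at 0.05, 0.003 and 0.053 between same-numbered arrays and at −0.048 to 0.03 between differently numbered ones. With 3 arrays per group, these values cannot tell whether the replicate numbers pair the arrays. With the replicate block 9 KLF probe sets were lower and 0 higher, 0 corepressors and coactivators, 1 Klf2 regulator and 1 TGF-beta gene were higher, and 4 quiescence genes were lower, of all probe sets 4516 higher and 4140 lower.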
